A study of Mus musculus with 8 samples.

Results

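Messenger RNA levels of the mitochondrial protein import machinery, with its chaperones and proteases, were compared between genotypes in fat of the inguinal (groin) depot, a subcutaneous white adipose tissue. The KO group held 4 male C57BL/6 mice hemizygous for a deficiency of lysophosphatidic acid receptor 4 (Lpar4 -/Y), and the WT group held 4 wild-type male littermates. All mice were 12 weeks old, ate standard chow and received no treatment beyond the genotype, and each contributed 1 array. Genes were taken by name: all whose symbol starts with Tomm or Timm followed by a number, plus 21 named chaperones, peptidases, proteases and assembly factors. Of these, 43 genes were measured by a probe set that names no other gene, among 18193 genes in all. Each gene is represented by its brightest probe set over the 8 arrays, its values are signals on the log2 scale. Each difference is the KO mean less the WT mean. The prohibitin Phb and the pore subunits Tomm5 and Tomm6 share their probe sets with another annotated gene and are not analysed here.

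Nearly all mitochondrial proteins are made in the cytosol and imported. They enter through the outer membrane translocase (TOM), and are then passed to the sorting and assembly machinery (SAM), to small chaperones and a disulphide relay in the intermembrane space, or to the inner membrane translocases TIM23 and TIM22. In the matrix an Hsp70 motor pulls the chain in, a peptidase removes the targeting sequence, chaperonins fold the protein and proteases degrade what does not fold. Mitochondria of white adipocytes serve fatty acid oxidation, the supply of citrate for lipid synthesis and, in beige cells, heat production.

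A minority of the import genes passed the test, all of them higher in KO and by small amounts. In limma's test over all genes, with Benjamini-Hochberg adjustment and a threshold of 0.05, 8 of the 43 genes were higher in KO, against 2.39% of all genes, and 0 were lower, against 1.64%. The 8 were Chchd4 and Mtx2, the small TIMs Timm13 and Timm8b, the inner membrane subunits Timm21, Timm22 and Timm50, and the peptidase subunit Pmpcb. Their increases ran from 0.17 to 0.48 log2, or 1.13-fold to 1.40-fold. At an unadjusted p under 0.05, 26 genes were higher and 0 lower in the same limma fit. Of all 18193 genes, 4172 were under it in either direction. The 26 include Tomm22, Timm9, Tomm20, Tomm70a, Timm29 and Pmpca, whose differences were at most 0.00023. The median difference of the 43 genes was 0.08, against 2.9e-05 over all genes.

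These calls have 2 limits. The labels number the mice 1 to 4 in each genotype, and same-numbered KO and WT arrays deviated together. So did unlike-numbered ones within numbers 1 and 2 and within 3 and 4. With the mouse number as a replicate block, 0 of the 8 passed over all genes, with adjusted p from 0.0577 for Chchd4 to 0.155 for Timm21. In that fit 0 of all 18193 genes passed. In a limma fit blocked on numbers 1 and 2 against 3 and 4, 7 members were higher and 0 lower, against 296 and 197 of all genes. The 7 were Chchd4, Timm22, Mtx2, Pmpcb, Timm13, Timm21 and Gfer, while Timm50 (adjusted p = 0.0593) and Timm8b (0.0641) were lost. Leaving out any 1 array also cut the count of 8, to 0 without KO 3, to 2 without KO 1, WT 1 or WT 2, and to 3 without each of the other 4 arrays. Calls over all genes fell too, from 733 to between 10 (without KO 3) and 253 (without KO 2). Chchd4 and Timm22 passed in 7 of these 8 fits, all but the fit without KO 3.

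The deposited values of many probe sets hardly moved between arrays. A gene is called near constant here when its SD over the 8 arrays was under 0.01, and varying otherwise. Of the 43 genes 27 varied, a share of 62.8% against 28.4% of all genes, and the largest difference among the other 16 was 0.00023. The KO mean was higher in 25 of the 27, against 52.3% of varying genes. All 8 genes called over all genes were among the 27, where 6.65% of varying genes were called higher. In a limma fit over the 5173 varying genes alone, 17 of the 27 were higher and 0 lower, against 14.9% and 12.2% of varying genes. With the replicate block in that fit 12 of 27 were higher and 0 lower, against 10.3% and 9.24%. In 18 of the 27 no KO array reached the WT range, and all 18 were higher in KO, where 18.2% of varying genes lay wholly higher and 15% wholly lower. A gene can pass the SD limit because its genotypes differ, so these counts hold for the 27 alone and do not describe the pathway. The 17 comprise the 8 above and Trap1, Timm17b, Lonp1, Tomm7, Samm50, Timm8a1, Hspd1, Hspa9 and Hspe1.

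**Figure D1:**
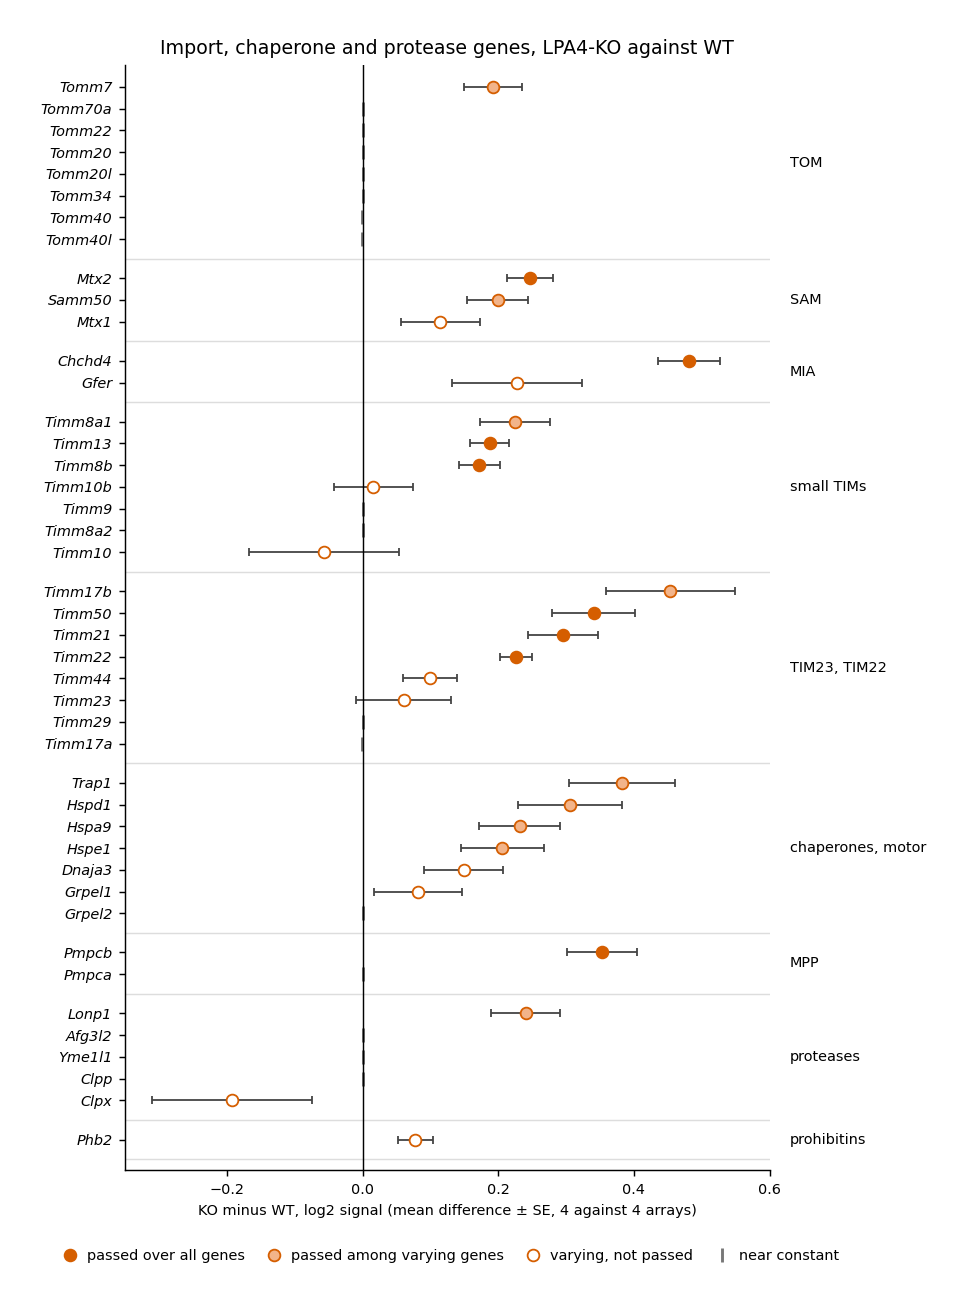
Difference in log2 signal, KO minus WT, with its SE (4 against 4 arrays) for each of the 43 genes, grouped by role in import. Filled points passed limma's test over all genes, pale points passed only in the fit over varying genes, open points varied without passing and vertical ticks mark near-constant genes; of the 27 varying genes 25 lie above 0, and Clpx and Timm10 lie below it.

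In the outer membrane, the TOM complex gave a single varying gene. Tomm7, a small subunit that modulates assembly of the TOM complex, read 10.49, 10.36, 10.36 and 10.29 in KO mice 1 to 4 and 10.19, 10.20, 10.16 and 10.19 in WT mice 1 to 4. All KO arrays lay above all WT arrays, and KO 1 was the highest. The difference was 0.19 ± 0.04 (SE), which missed the threshold over all genes (adjusted p = 0.0623). Tomm7 passed in the varying-gene fit (0.0315) and was lost there with the replicate block (0.0614). Tomm20, the receptor for presequences and the brightest of all members, stood at 11.91 in all 8 arrays. The pore protein Tomm40, the receptors Tomm22 and Tomm70a, the cytosolic co-chaperone Tomm34 and the paralogs Tomm40l and Tomm20l were near constant as well.

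Of the SAM complex, which inserts barrel-shaped proteins into the outer membrane, 1 of 3 genes was higher over all genes and 0 were lower. Mtx2, a metaxin that faces the cytosol, had 9.43, 9.41, 9.45 and 9.35 in KO and 9.14, 9.19, 9.10 and 9.23 in WT. The genotypes were well apart in Mtx2, with WT 4 nearest to KO. Its difference of 0.25 ± 0.03 passed over all genes (adjusted p = 0.0254) and, with the block, among varying genes (0.0431). Samm50, the barrel at the core of the complex, had 10.67, 10.71, 10.75 and 10.64 in KO against 10.52, 10.46, 10.58 and 10.40 in WT. Samm50 did not overlap between genotypes and differed by 0.20 ± 0.05, which did not pass over all genes (adjusted p = 0.0650) and passed in the varying-gene fit without (0.0309) and with the block (0.0451). The second metaxin, Mtx1, differed by 0.11 with overlapping genotypes and did not pass (0.302).

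Of the whole pathway, the disulphide relay of the intermembrane space held the largest difference. Chchd4, the oxidoreductase also known as MIA40 that traps and folds cysteine-rich proteins, read 9.00, 8.92, 9.05 and 9.04 in KO and 8.54, 8.42, 8.59 and 8.54 in WT. The lowest KO array was far above the highest WT array, and the spread within each genotype was small (SD 0.06 in KO and 0.07 in WT, n = 4 each). The difference was 0.48 ± 0.05, or 1.40-fold, with an adjusted p of 0.0134 over all genes and 0.0192 among varying genes with the block. Gfer, the sulfhydryl oxidase that recharges Chchd4, had 9.45, 9.56, 9.73 and 9.68 in KO and 9.30, 9.20, 9.47 and 9.53 in WT. Gfer overlapped between genotypes because WT 3 and WT 4 exceeded KO 1, although KO was higher in all 4 number pairs. Its difference of 0.23 ± 0.10 did not pass over all genes (0.226), but did in a fit blocked on whether the number was 1 or 2, or 3 or 4 (0.0498). A dimmer varying probe set of Gfer differed by 0.29, with every KO array above every WT array. In limma's test probe set by probe set it did not pass (adjusted p = 0.0766).

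The small TIM chaperones, cysteine-rich substrates of Chchd4 that escort membrane proteins across the intermembrane space, had 2 of 7 genes higher over all genes and 0 lower. Timm13 read 10.05, 9.99, 10.06 and 10.07 in KO against 9.85, 9.84, 9.92 and 9.81 in WT. Timm8b read 9.63, 9.56, 9.60 and 9.54 in KO against 9.44, 9.34, 9.43 and 9.43 in WT. Timm8a1, the partner of Timm13 in the escort complex, read 8.53, 8.52, 8.73 and 8.62 in KO against 8.39, 8.33, 8.42 and 8.36 in WT. None of these 3 genes overlapped between genotypes, and in Timm8a1 KO 3 stood above the other KO arrays. Timm13 (0.19 ± 0.03, adjusted p = 0.0322) and Timm8b (0.17 ± 0.03, 0.0402) passed over all genes, and Timm8a1 (0.22 ± 0.05) passed among varying genes only (0.0278). With the block among varying genes Timm8a1 held (0.0443), whereas Timm13 (0.0531) and Timm8b (0.0582) did not.

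The other small TIMs did not pass. Timm10 differed by -0.06 and Timm10b, a small TIM of the TIM22 complex, by 0.02, without passing (adjusted p = 0.813 and 0.908). In Timm10, KO 1 and KO 2 (8.99 and 8.92) were below all WT arrays and KO 4 (9.41) was above them. Timm9, the partner of Timm10, was near constant, and so was Timm8a2, whose probe set was among the dimmest 0.78% of all. Whether the changes of the Timm13 group and of Timm10 differ from each other was not tested.

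The inner membrane translocases had 3 of 8 genes higher over all genes and 4 among varying genes. Timm22, the channel for carrier proteins, had 8.32, 8.28, 8.26 and 8.30 in KO and 8.09, 8.06, 8.01 and 8.10 in WT. Its genotypes were tightly grouped and apart, with a difference of 0.23 ± 0.02 and an adjusted p of 0.0146 over all genes. Timm50, the receptor of TIM23 that takes over chains from the outer membrane, had 8.70, 8.64, 8.84 and 8.67 in KO and 8.46, 8.25, 8.41 and 8.36 in WT. KO 3 was the highest array for Timm50 and WT 2 the lowest, and the difference was 0.34 ± 0.06 (adjusted p = 0.0408).

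Timm21, a TIM23 subunit that contacts the respiratory chain, had 8.73, 8.55, 8.63 and 8.58 in KO and 8.33, 8.42, 8.26 and 8.29 in WT. These did not overlap, and the difference was 0.30 ± 0.05 (adjusted p = 0.0399). Timm17b, 1 of the paired Timm17 subunits of the TIM23 channel, had 9.36, 9.25, 9.53 and 9.17 in KO and 8.75, 8.83, 8.90 and 9.03 in WT. The gap between KO 4 and WT 4 was narrow beside the spread, so that the difference of 0.45 ± 0.09 missed the threshold over all genes (0.0559). It passed in the varying-gene fit (0.0141), also with the block (0.0393). Timm22 (0.0331), Timm50 (0.0272) and Timm21 (0.0393) also held there with the block.

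The channel protein itself did not separate the genotypes. Timm23 read 10.92, 11.11, 11.18 and 11.15 in KO and 10.95, 10.96, 11.14 and 11.06 in WT. KO 1 was the lowest of all 8 arrays, and the difference of 0.06 ± 0.07 did not pass (adjusted p = 0.666). Timm44, which tethers the motor to the channel, differed by 0.10 (0.206). Timm17a, the paralog of Timm17b, and the TIM22 subunit Timm29 were near constant.

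**Figure D2:**
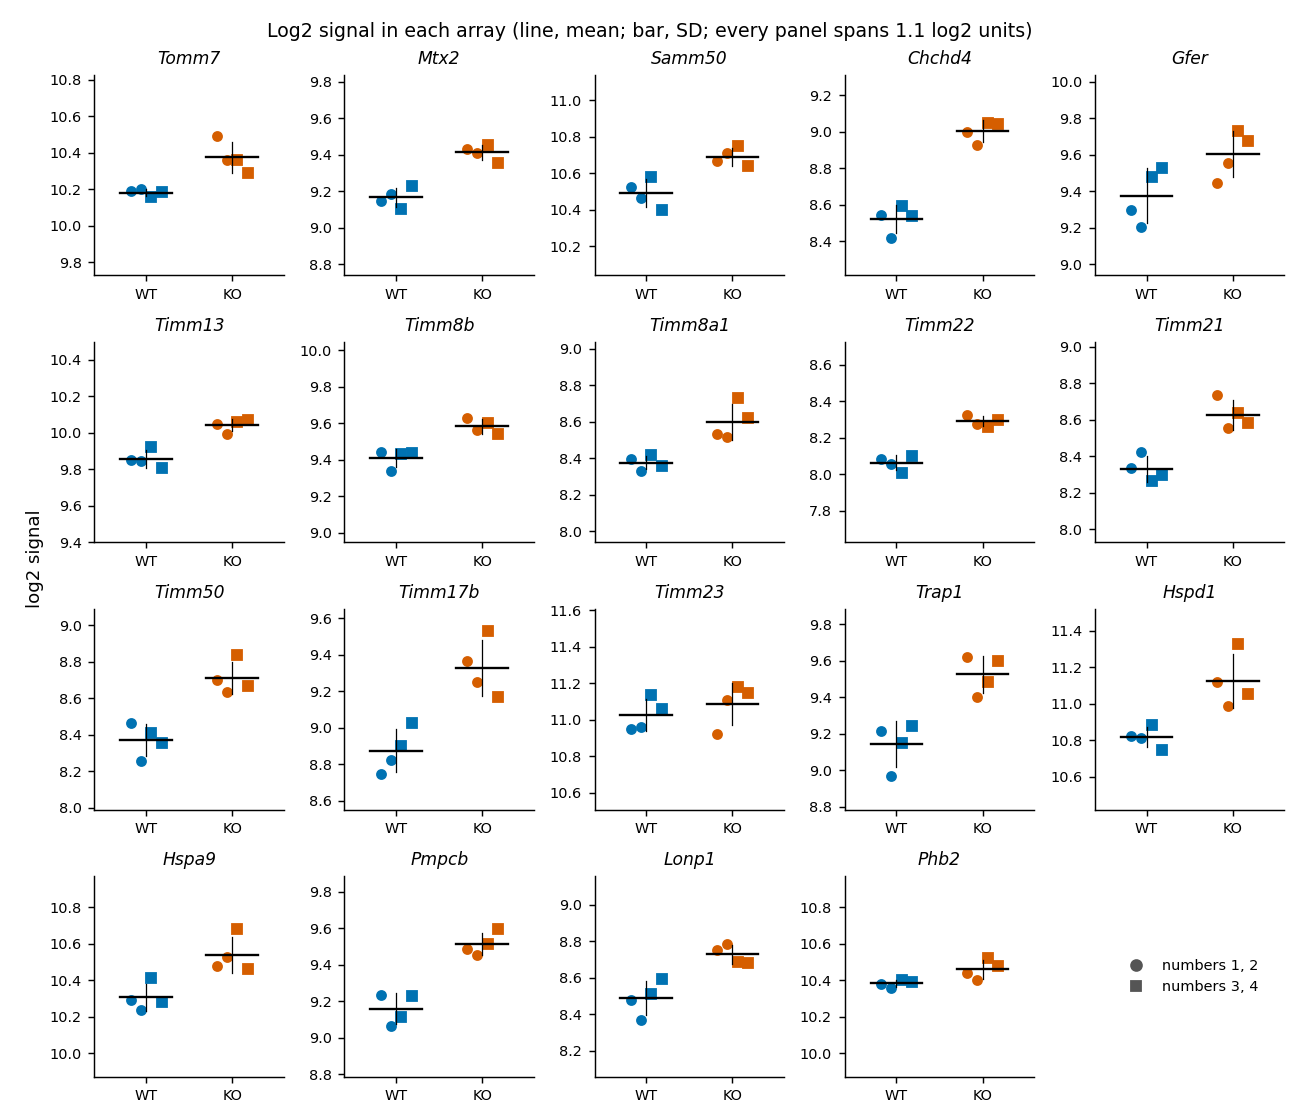
Log2 signal of the 19 varying genes chosen by p or as the brightest of their role, with WT in blue and KO in orange; circles are mice numbered 1 and 2, squares mice 3 and 4, lines are means and bars the SD (n = 4). KO lies wholly above WT in each panel except Gfer and Timm23, and the gap is widest relative to the spread in Chchd4 and Timm22.

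Among the matrix chaperones 0 of 7 genes passed over all genes, and 4 passed among varying genes, all higher. Trap1, the mitochondrial Hsp90, read 9.62, 9.40, 9.49 and 9.60 in KO and 9.22, 8.97, 9.15 and 9.24 in WT. Every KO array was above WT, with number 2 low in both genotypes, and the difference of 0.38 ± 0.08 did not pass over all genes (adjusted p = 0.0534) and did in the varying-gene fit (0.0148, and 0.0218 with the block). Hspd1, the chaperonin Hsp60, read 11.12, 10.99, 11.33 and 11.05 in KO and 10.82, 10.81, 10.88 and 10.74 in WT. KO 3 was highest in Hspd1, no arrays overlapped, and the difference was 0.31 ± 0.08 (adjusted p = 0.0821 over all genes; in the varying-gene fit 0.0261, and 0.0345 with the block).

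Hspa9, the Hsp70 of the import motor, read 10.48, 10.53, 10.68 and 10.46 in KO and 10.29, 10.24, 10.41 and 10.28 in WT. WT 3 came close to KO 4 without reaching it, and the difference was 0.23 ± 0.06 (0.0884 over all genes; in the varying-gene fit 0.0343, and 0.0365 with the block). Hspe1, the lid of the chaperonin known as Hsp10, averaged 9.68 ± 0.06 in KO against 9.48 ± 0.11 in WT (SD, n = 4 each). The 0.21 difference of Hspe1 was near the threshold among varying genes (0.0499) and did not pass there with the block (0.0627). Dnaja3 (0.15), a J-protein partner of Hspa9, and Grpel1 (0.08), its nucleotide exchange factor, overlapped between genotypes and passed neither over all genes nor in the varying-gene fits. The second exchange factor, Grpel2, was near constant.

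In the processing peptidase, which cuts off the targeting sequence, the catalytic subunit was higher. Pmpcb had 9.49, 9.45, 9.51 and 9.60 in KO and 9.23, 9.06, 9.11 and 9.23 in WT. The genotypes were far apart, with a difference of 0.35 ± 0.05, an adjusted p of 0.0287 over all genes and 0.0246 among varying genes with the block. Its partner Pmpca, which binds the substrate, was near constant.

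The proteases were uneven. Lonp1, the soluble protease of the matrix, had 8.75, 8.79, 8.69 and 8.68 in KO and 8.48, 8.37, 8.51 and 8.59 in WT. KO was higher throughout, with a wider gap in numbers 1 and 2 (0.35) than in 3 and 4 (0.13). The overall difference of 0.24 ± 0.05 did not pass over all genes (adjusted p = 0.0583), passed in the varying-gene fit (0.0231) and was lost there with the block (0.0657). Clpx, the unfoldase of the other matrix protease, was the member with the most negative difference, at -0.19 ± 0.12, and did not pass (0.396). It read 8.94, 8.99, 8.82 and 9.05 in KO and 9.00, 8.98, 9.11 and 9.46 in WT, with overlap between genotypes and WT 4 the highest. Its peptidase partner Clpp stood at 9.28 in all 8 arrays, and the inner membrane proteases Afg3l2 and Yme1l1 were near constant. Phb2, a scaffold around inner membrane proteases, read 10.44, 10.40, 10.52 and 10.48 in KO and 10.38, 10.36, 10.40 and 10.39 in WT. KO 2 and WT 3 nearly touched, and the difference of 0.08 ± 0.03 passed neither the all-gene fit (0.146) nor the varying-gene fit (0.192). Its other varying probe sets gave larger differences, 0.19 and 0.18, both with KO wholly above WT. Tested probe set by probe set, the second of these passed (adjusted p = 0.0353) and the first did not (0.0891), and with the probe sets of Phb2 averaged the difference was 0.11 and passed (0.0419).

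The result for a gene could depend on which of its probe sets was read. The 43 genes had 94 probe sets, of which 42 varied, where 23.6% of all single-gene probe sets did, 38 of them with a higher and 4 with a lower mean in KO. In 27 of the 42 every KO array was above every WT array, where 16.8% of all varying single-gene probe sets were. In 10 genes more than 1 probe set varied, and in all 10 their differences had the same sign. Trap1 gave 0.38 and 0.47, Pmpcb 0.35 and 0.29, Samm50 0.20 and 0.29, and Clpx -0.19 and -0.16. Other genes combined a varying with a near-constant probe set. The brighter probe set of Timm17b differed by 0.45 while the dimmer, at 8.14, was near constant. For Tomm70a the brightest was near constant and another, at 8.94 on average, was 0.17 higher in KO. Of the probe sets chosen, 10 carry a suffix that marks probes shared with other transcripts (_s_at or _x_at), among them those of Mtx2, Timm17b, Samm50, Tomm7, Hspe1 and Phb2, so other transcripts can contribute to these values. A further 12 carry _a_at, which marks probes shared by transcripts of 1 gene. Tested probe set by probe set over the whole array, 8 were higher, against 1.21% of single-gene probe sets, and 0 lower, against 1.01%.

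**Figure D3:**
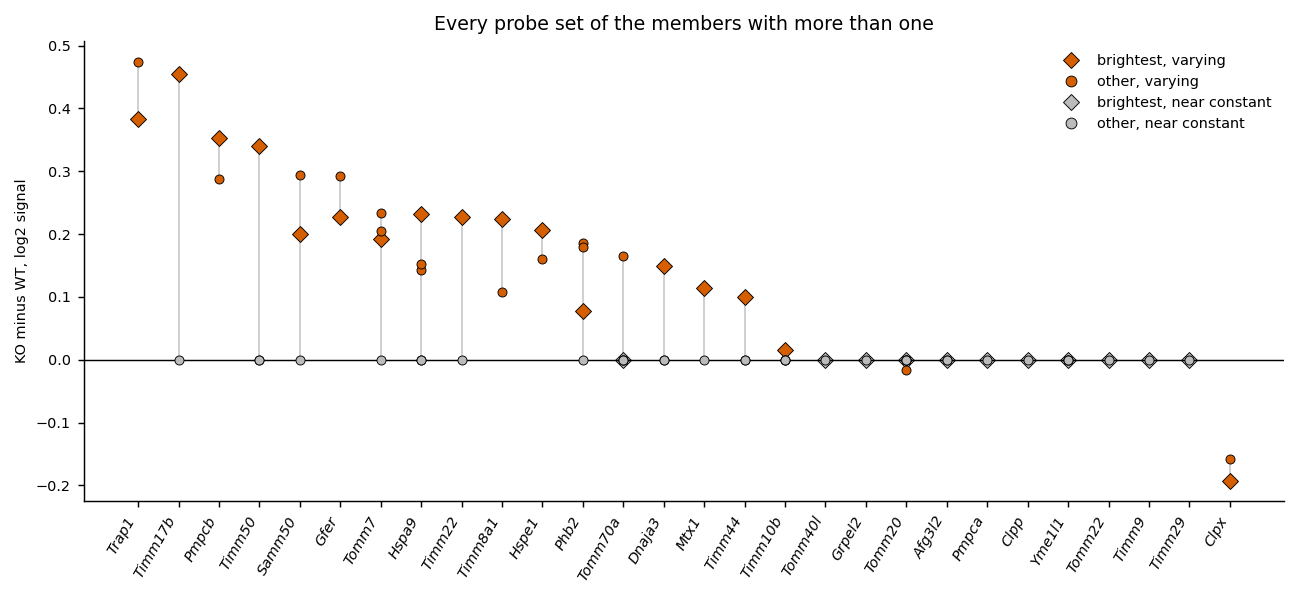
Difference in log2 signal, KO minus WT, for each probe set of the 28 genes that have more than 1. Diamonds are the brightest probe set, which stands for the gene, and grey marks are near constant; varying probe sets of a gene lie on the same side of 0, while near-constant ones sit at 0 also in genes such as Timm17b and Timm50 whose brightest probe set does not.

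Promoter sequences are shown for some genes of the import pathway that stood apart in KO, with motifs for factors known to act on nuclear genes of mitochondria. Every gene shown holds a motif marked in capitals, so the sequences do not represent all genes that stood apart. The sequences are from RefSeq, build GRCm38.p6, whose promoter table held 37 of the 43 genes. They run 5′ to 3′ on the gene's strand within the 250 bases before the first listed start. Pmpcb, Mtx2 and Chchd4 are printed in full, and Trap1 and Hspe1 in parts that stop short of the start. Capitals mark the motifs, each searched on both strands: CCGGAAG for GABP and other ETS factors, the NRF1 motif, CAAGGTCA for the ERR family, TGACGTCA for CREB and ATF1, and the heat shock element. AAGATGGC for YY1 and the CCAAT box were searched as well and are not in capitals. Timm22, Timm13, Timm8a1 and Lonp1 also stood apart and held none of the motifs searched. Timm50, Timm17b and Samm50 held only a CCAAT box. Pmpcb (chr5:21736910-21737159, + strand) and Mtx2 (chr2:74825562-74825811, + strand) each hold an ETS motif close to the start. Chchd4 (chr6:91473424-91473673, - strand) holds an NRF1 motif, and Trap1 (chr16:4077841-4078060, - strand, 220 bases) an ERR and a CREB motif. For Hspe1 a stretch of 30 bases is given (chr1:55088051-55088080, + strand), in which overlapping heat shock elements also overlap the ETS motif.
Pmpcb: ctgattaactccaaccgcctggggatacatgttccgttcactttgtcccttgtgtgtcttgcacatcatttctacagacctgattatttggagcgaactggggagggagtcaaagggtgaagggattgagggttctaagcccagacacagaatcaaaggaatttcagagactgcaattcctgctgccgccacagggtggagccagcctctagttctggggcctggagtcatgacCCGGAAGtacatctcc
Mtx2: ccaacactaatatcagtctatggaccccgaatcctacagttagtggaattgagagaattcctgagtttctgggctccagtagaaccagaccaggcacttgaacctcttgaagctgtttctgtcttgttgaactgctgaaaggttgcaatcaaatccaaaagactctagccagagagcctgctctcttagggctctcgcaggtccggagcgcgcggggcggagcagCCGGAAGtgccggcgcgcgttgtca
Chchd4: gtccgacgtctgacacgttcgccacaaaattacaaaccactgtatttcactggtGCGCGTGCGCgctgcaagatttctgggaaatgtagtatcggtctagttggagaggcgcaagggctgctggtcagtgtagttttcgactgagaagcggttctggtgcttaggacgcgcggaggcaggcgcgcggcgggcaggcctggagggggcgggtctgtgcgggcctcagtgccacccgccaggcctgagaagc
Trap1: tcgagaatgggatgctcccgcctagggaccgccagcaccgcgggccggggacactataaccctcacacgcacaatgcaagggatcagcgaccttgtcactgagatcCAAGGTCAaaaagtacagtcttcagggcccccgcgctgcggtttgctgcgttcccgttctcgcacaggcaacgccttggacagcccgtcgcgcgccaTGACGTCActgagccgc
Hspe1: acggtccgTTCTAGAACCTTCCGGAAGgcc

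Across the pathway the ETS motif was the most frequent of these 7. It lay in 16 of 37 promoters (43.2%), against 7.05% of 27025 gene promoters of the same length. Of those 16 genes 9 varied and 7 were near constant, so the motif occurred in genes of both kinds, Pmpcb, Mtx2, Timm8b and Phb2 among the first and Tomm22, Tomm70a and Pmpca among the second. The NRF1 motif lay in 4 (Chchd4, Hspd1, Dnaja3 and Tomm20), against 3.86% of all promoters. The ERR motif lay in Trap1 and Timm8b (1.31% of all), the CREB motif in Trap1 (1.62%) and the heat shock element in Hspe1 and Timm9 (0.4%). The CCAAT box lay in 11 of 37 (29.7%), against 34.5% of all promoters, and the YY1 motif in 0, against 1.59%. Hspd1 and Hspe1 are neighbours on opposite strands, and 1 of the 2 listed starts of Hspd1 lies 216 bases upstream of the Hspe1 start. Both chaperonin genes had KO arrays wholly above WT, by 0.31 and 0.21. A motif match is a description of the sequence, and binding was not measured.

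The other genes of import and of protein processing were read from lists joined to the members. Of 12 measured genes of import and insertion 1 passed over all genes, higher in KO, and 0 were lower. That gene was Dnajc15, a J protein of the import motor, whose mean ± SD over 4 mice was 10.91 ± 0.08 in KO against 10.46 ± 0.04 in WT. It differed by 0.45 (limma adjusted p = 0.0140). Among 13 genes of processing and quality control 5 were higher and 0 lower. They included Ghitm, an inner membrane protein (0.23, adjusted p = 0.0200), Lactb, a filament-forming protein of the intermembrane space (0.50, 0.0290), and Immp1l, an inner membrane signal peptidase (0.26, 0.0309). With the replicate block these 4 were lost over all genes (0.0677, 0.114, 0.112 and 0.0755) and passed among varying genes (0.0201, 0.0393, 0.0246 and 0.0318). The other calls were Afg3l1 and Xpnpep3, named after their values were seen (0.27 and 0.32). In the fit over varying genes, 14.9% of all were higher and 12.2% lower. Of 8 varying genes of import and insertion 4 were higher and 1 lower. Of 8 varying genes of processing and quality control 5 were higher and 1 lower. The lower calls of these 2 lists were thus near the share over all varying genes. The lower ones, named after their values were seen, were the protease Htra2 (-0.22, adjusted p = 0.0404) and the insertase Oxa1l (-0.19, 0.0471), and neither held with the block (0.0555 and 0.103).

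Other mitochondrial gene groups are given beside the import genes. Of 44 measured Nduf genes of respiratory complex I, subunits and assembly factors, 32 varied. In the fit over all genes 10 of them were higher and 0 lower. Their median difference was 0.16 over all 44 and 0.19 over those that varied. Of 76 genes of the mitochondrial ribosome 28 varied, and 11 were higher and 1 lower. Their median was 0.00020 over all 76 and 0.17 over those that varied. Among all genes 28.4% varied, 2.39% were higher and 1.64% lower. For the import genes the medians were 0.08 over all 43 and 0.21 over the 27 that varied. The difference between these groups of genes was not tested.

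The tissue label and other cell types were checked on all arrays. The 9 measured adipocyte markers, Adipoq and Fabp4 among them, averaged 12.07 to 12.17 in KO and 12.04 to 12.07 in WT; 2 passed over all genes, both higher in KO, and in the varying-gene fit 3 were higher and 0 lower (2 and 1 with the block). The 16 skeletal muscle markers averaged 6.52 to 9.30 in KO and 6.57 to 8.95 in WT, split between numbers 1 and 2 (high) and 3 and 4 (low), with 0 passing. The 8 macrophage markers (9.53 to 9.73 in KO, 8.68 to 9.96 in WT) and the 5 epithelial markers (6.48 in all arrays) had 0 passing genes. All 8 macrophage markers had a higher mean in KO, with a median difference of 0.36, and all 8 overlapped between genotypes. Blood endothelial markers (8.88 to 9.10 in KO, 9.06 to 9.31 in WT) and smooth muscle markers (8.33 to 8.64 in KO, 8.80 to 9.07 in WT) had 1 of 8 and 1 of 5 genes lower in KO over all genes. In the varying-gene fit 4 of 7 endothelial genes were lower (3 with the block), as were 2 of 4 smooth muscle genes (3 with the block), and 0 were higher. Brown and beige adipocyte markers (7.15 to 7.31 in KO, 7.01 to 7.20 in WT) had 0 passing genes over all genes. In the varying-gene fit 2 of 5 beige markers were higher, also with the block, and 0 lower, with a median difference of 0.24 over the 5. Lymphocyte markers (6.57 to 6.78 and 6.32 to 6.72) and progenitor markers (10.02 to 10.30 and 9.78 to 10.36) had 0 passing genes. The 3 varying lymphocyte markers all had a higher mean in KO, with a median difference of 0.43, and all 3 overlapped between genotypes. The probe sets for 18S ribosomal RNA were higher in all KO arrays, by 0.44, 0.22 and 0.28, and the 3′ minus 5′ signal of Gapdh was 0.63 to 0.87 in KO and 0.66 to 0.77 in WT. The part of adipocyte, beige, immune, vascular and 18S signal in the import genes' differences was not tested. In whole tissue, fewer cells of a type and less RNA per cell cannot be told apart. Of 3 probe sets for Lpar4 itself, 1 was 1.12 log2 lower in KO (5.81 ± 0.07 against 6.93 ± 0.10, SD, n = 4; adjusted p = 0.0104 over all probe sets), and 2 were higher without passing (0.71 and 0.53). Where they lie relative to the deleted part is not known here.

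The difference of the 27 varying import genes was present in both parts of the muscle split. The mean of the 27 varying genes was 9.58, 9.55, 9.64 and 9.58 in KO mice 1 to 4 and 9.39, 9.34, 9.42 and 9.41 in WT mice 1 to 4, so that KO was higher in both parts. It joins genes kept by their spread, so no p is given for it. Differences within numbers 1 and 2 had a median of 0.21 over these genes, with 25 of 27 above 0. Within numbers 3 and 4 the median was 0.20, with 26 above 0. The share of all varying genes above 0 within each part was not computed. Over all 8 arrays it was 52.3%. KO was higher in all 4 number pairs in 22 of the 27, where 27.8% of varying genes were. The mean of the muscle markers had a similar range in both genotypes (6.52 to 9.30 in KO and 6.57 to 8.95 in WT). As a covariate it could therefore move a genotype difference only little. With it in the fit, no difference among the 27 moved by more than 0.0088. In that fit 5 genes passed over all genes, Chchd4, Mtx2, Pmpcb, Timm13 and Timm22, while Timm21, Timm50 and Timm8b did not. Leaving out each array in turn in the fit over varying genes, an alternative added after seeing the data, left 9 to 15 genes higher and 0 lower. In each of these 8 fits Chchd4, Mtx2, Pmpcb, Timm17b, Timm21, Timm22, Timm50 and Trap1 passed.

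**Figure D4:**
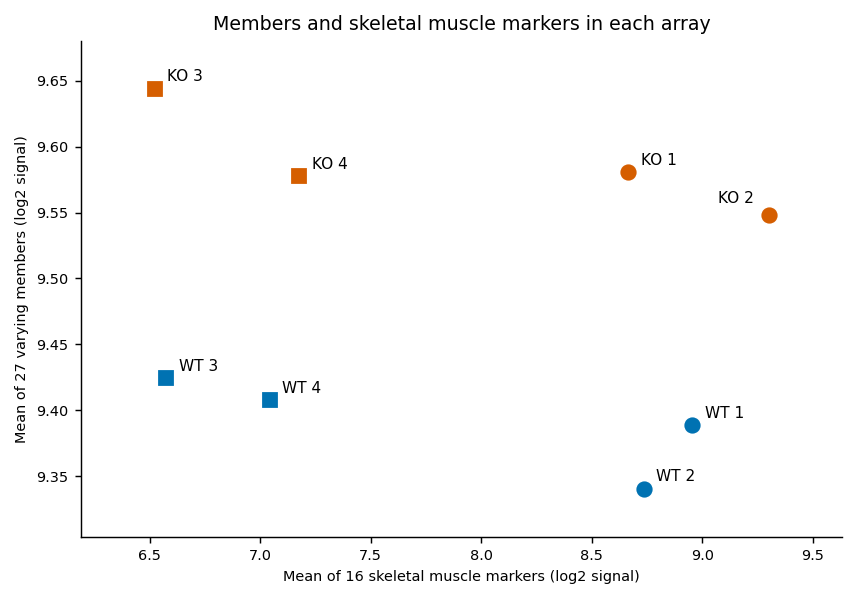
Mean log2 signal of the 27 varying import genes against the mean log2 signal of 16 skeletal muscle markers in each array, WT in blue and KO in orange, numbers 1 and 2 as circles and 3 and 4 as squares. Muscle markers split the arrays by number from left to right, while the KO arrays (9.55 to 9.64) all lie above the WT arrays (9.34 to 9.42).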

How the data were processed

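Per the labels' protocols, 100 ng of total RNA per mouse was labelled with biotin for a 3' expression array, and the labels call the samples biological replicates. The authors deposited log2 signals for 45101 probe sets in 8 arrays, a scale read from the values (medians 6.73 to 6.74, range 4.93 to 14.3). The submitters' processing notes list R 2.14.0. How background, normalisation and summarisation were handled is not given in the sources used, and neither is the origin of the near-constant values. Signal over background was not analysed here. The number of arrays limits the precision.

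From these values, 34945 probe sets with a single gene in the platform annotation gave 18193 genes, each by its brightest probe set; 932 probe sets with several genes and the control probe sets were left out. KO and WT were compared with limma 3.58.1 (lmFit, eBayes) under R 4.3.3; p-values are two-sided and were adjusted by Benjamini-Hochberg across every gene tested. The fit was tested on simulated data. The members, lists and tests were chosen with earlier results of these data known. Array values are given for the 16 varying members with the smallest p and the brightest of each role, and Clpx and Timm10 were added after their values were seen; of the other lists up to 8 genes with the smallest p were named.

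Same-numbered arrays' deviations from the genotype means correlated across genes at 0.315, 0.486, 0.189 and 0.244. All were over 0.1, so the numbers were treated as pairs, from the data and not the labels. For KO 3 the best match was WT 4 (0.364), and for KO 4 it was WT 3 (0.266). KO 1 with WT 2 (0.107) and KO 2 with WT 1 (0.220) were over 0.1 as well. The rule therefore cannot tell number pairs from the split of numbers 1 and 2 against 3 and 4.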

Additional observations from a re-analysis of the deposited data

Results flagged for a closer look

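Of 58 sets of 4 same-genotype values, 2 had a single value set apart from the rest, where chance gives about 1 in 20. Timm8b was low in WT 2 (9.34, the other WT arrays 9.43 to 9.44). The mean of the lymphocyte markers was high in WT 1 (6.72, the others 6.32 to 6.34).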

How the results depend on the processing

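The 8 genes higher in KO became 0 with the replicate block and 0 with an unequal-variance test per gene. At an unadjusted p under 0.05, 22 and 23 of the 43 members were higher in these 2 tests, near-constant members not being left out. Of all 18193 genes, 3703 and 3623 were under it in either direction. They became 17 among genes with an SD of at least 0.01, 14 among genes above the median level, 5 without _s_at, _x_at and _a_at probe sets, 5 with the muscle covariate, 0 to 3 in limma without each array in turn and 9 to 15 among varying genes without each array. Dropping those suffixes left 36 of the 43 genes: Mtx2, Timm13 and Timm8b had no probe set left, Timm50 moved to a near-constant one and Samm50 gained the call. The 733 genes called in all became 0 with the replicate block (3703 unadjusted), 9 with the unequal-variance test, 1402 among varying genes and 351 with the muscle covariate; without KO arrays 1 to 4 they were 131, 253, 10 and 230, without WT arrays 1 to 4 they were 212, 132, 193 and 220, and 636 to 1149 among varying genes. No member was called lower in any of these limma fits; at an unadjusted p under 0.05, 1 was lower without those suffixes and 0 in the others. Tomm20 turned to -0.0026 with probe sets averaged, and Clpp to -0.014 after quantile normalisation, with neither called; the cause was not tested. Of the other values of named genes, 292 kept direction and call, which counts genes called in neither fit. A further 70, all from the 8 genes called in the main fit, lost the call, and 26 gained it.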

Other observations

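Genes of cristae and of the cytosolic chaperones were listed beside the import genes. Of 5 genes of the cristae-organising MICOS complex 2 passed over all genes, both higher in KO. Immt, its core subunit, had a mean ± SD over 4 mice of 9.47 ± 0.02 in KO against 9.12 ± 0.02 in WT. It was 0.35 higher (limma adjusted p = 0.00209), and Apoo was 0.38 higher (0.0145). With the replicate block both were lost over all genes (0.0685 and 0.0950) and passed among varying genes (0.0227 and 0.0246). Of 17 cytosolic chaperone genes 2 were higher, Hsp90aa1 (0.30, adjusted p = 0.0220) and the Hsp40 gene Dnajb1 (0.18, 0.0332), both lost with the block over all genes (0.123 and 0.149). In the fit over varying genes 4 of these 17 were higher and 1 lower. The lower one, named after its values were seen, was the small heat shock protein Hspb1 (-0.48, adjusted p = 0.0192, and 0.0377 with the block). Of 4 measured stress factors, Atf4 among them (-0.07, adjusted p = 0.723), 0 passed, and 3 were near constant.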
